A study of Mus musculus with 29 samples.

Results

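The genes described here are 30 genes of cholesterol synthesis, its control, and the uptake, export and transport of cholesterol, listed by symbol and read from a table of 25239 genes in cultured mouse astrocytes. All 30 were found, and all 30 passed the filter on low values (a mean of at least 1 on the scale described below), which 15719 genes of the table passed. The list was not chosen from a comparison between the groups, but it was drawn up with other results of these data known.

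Cortical astrocytes of wild-type C57BL/6J mice aged 5 to 6 days were expanded over 10 days in serum-containing medium, to which either bFGF at 10 ng/ml (bFGF culture) or both EGF and bFGF at 10 ng/ml each (EGF + bFGF culture) had been added. The series' design text instead gives an age of 6 to 8 days. The labels name grey matter as the tissue, and the study's methods name white matter. Retroviruses then delivered Neurog2, a proneural transcription factor that drives astrocytes towards neurons, Hmgb2, an architectural protein that bends chromatin, both, or a fluorescent reporter alone as control. A retrovirus of this kind enters dividing cells, and the strong CAG promoter drove its cargo. Reporter-positive cells were sorted 48 h after transduction, so each library pools many transduced cells. By the study's account, the Neurog2 virus also carried the reporter dsRed, the Hmgb2 virus carried GFP, and control cells carried GFP. The dsRed reporter therefore went with Neurog2 in these comparisons, and its part in the results was not tested. Of the 29 libraries, the EGF + bFGF culture held 15 (5 with the control virus, 4 with Hmgb2, 3 with Neurog2 and 3 with both) and the bFGF culture held 14 (3 with the control virus, 4 with Hmgb2, 4 with Neurog2 and 3 with both). The labels do not say which libraries came from separate cultures or litters, so p-values measure the spread between these samples, which may be technical.

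Values are rlog values, the regularized log2 counts that DESeq2 makes after scaling for library size. A difference of 1 is a doubling, smaller differences of weakly expressed genes are shrunken towards 0, and values are not divided by gene length, so levels are not compared between genes. Counts were not used here and the depth of each library is unknown. Differences are given with their standard error from limma's moderated test, and a gene was called higher or lower at a Benjamini-Hochberg adjusted p under 0.05 over all 15719 tested genes.

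The Neurog2 transcript was at 12.36 to 14.29 in the 13 libraries that received Neurog2 and at 7.74 to 11.47 in the 16 that did not. The Hmgb2 transcript was at 11.48 to 13.32 in the 14 libraries that received Hmgb2 and at 9.34 to 10.89 in the other 15. Among the libraries without the Neurog2 virus, the Neurog2 transcript was at 7.74 to 8.22 in the 8 with the control virus and at 9.35 to 11.47 in the 8 with Hmgb2, with no overlap. The libraries with Hmgb2 alone are part of the reference of the averaged Neurog2 comparison and one side of the Hmgb2 comparisons, and the part of this transcript in those results was not tested beyond the comparison with control libraries only, given below. The mean of 10 astrocyte markers was between 9.62 and 11.79, and the 7 lowest libraries lay below 10.4 while the other 22 lay at or above 10.8. None of the 10 astrocyte markers was called with Neurog2, and 4 of 7 neuronal markers rose while 1 fell. All 12 microglia and macrophage markers lay above 0 for Neurog2, with a median difference of 1.35, and 2 of them (Tyrobp and Laptm5) were called. Their mean was 4.11 to 8.78 (median 5.41) without Neurog2 and 4.21 to 9.14 (median 7.10) with it. Against control in the EGF + bFGF culture, the median difference of these 12 was 0.08 with Neurog2 (9 above 0, 3 below). It was 0.94 there with Neurog2 + Hmgb2 and −1.27 with Hmgb2 alone (12 below). In the bFGF culture it was 1.87 with Neurog2, 1.75 with Neurog2 + Hmgb2 and 0.28 with Hmgb2 alone. None of the 12 was called in these single-group comparisons. Of the pericyte and smooth muscle markers, 2 of 4 tested fell, Acta2 by 1.14 and Tagln by 1.02, and of the endothelial markers 1 of 4 tested fell, Esam by 1.75. Their part in the results was not tested.

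Cells make cholesterol from acetyl units through mevalonate and squalene, and the enzymes of this route are switched on together by SREBP2 (gene Srebf2). When sterols are scarce, Scap carries the SREBP proteins from the endoplasmic reticulum to the Golgi for cleavage, and Insig1 holds them back when sterols are plentiful. Excess sterol instead activates the LXR receptors (Nr1h2 and Nr1h3), which raise the cholesterol exporters Abca1 and Abcg1, the apolipoprotein Apoe, and Mylip, a ligase that removes lipoprotein receptors from the cell surface. In the brain, astrocytes are a main source of cholesterol and of Apoe-containing particles for neurons.

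The promoters of 4 of the synthesis genes are shown because these genes carry much of the change described below, or, for Hmgcs1, because it alone held the sterol-response motif. They are RefSeq windows of 250 bases before to 50 after the gene's start in GRCm38.p6, written 5′ to 3′ on the strand of the gene, with capitals for the sterol-response element searched (SRE, TCACNCCAC) and the CCAAT box (CCAAT, or ATTGG on the other strand). The CCAAT box is bound by NF-Y, which is known to work with SREBP at sterol genes. Sc5d, Msmo1 and Cyp51 were chosen after their values were seen, because they are the 3 synthesis genes with a promoter in the table that fell furthest relative to their error.
Hmgcs1, chr13:119690101-119690400, plus strand: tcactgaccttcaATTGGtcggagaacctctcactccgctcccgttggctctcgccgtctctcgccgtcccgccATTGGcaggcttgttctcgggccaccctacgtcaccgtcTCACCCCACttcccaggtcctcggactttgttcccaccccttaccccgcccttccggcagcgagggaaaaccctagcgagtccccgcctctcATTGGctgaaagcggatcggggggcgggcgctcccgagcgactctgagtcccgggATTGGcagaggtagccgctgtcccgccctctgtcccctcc
Sc5d, chr9:42264251-42264550, minus strand: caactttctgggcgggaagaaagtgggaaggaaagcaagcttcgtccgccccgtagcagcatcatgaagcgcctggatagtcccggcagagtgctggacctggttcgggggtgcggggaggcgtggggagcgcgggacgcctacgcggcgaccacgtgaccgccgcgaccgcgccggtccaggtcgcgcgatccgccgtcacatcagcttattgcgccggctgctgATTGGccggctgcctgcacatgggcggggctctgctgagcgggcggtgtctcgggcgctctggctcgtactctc
Msmo1, chr8:64733529-64733828, minus strand: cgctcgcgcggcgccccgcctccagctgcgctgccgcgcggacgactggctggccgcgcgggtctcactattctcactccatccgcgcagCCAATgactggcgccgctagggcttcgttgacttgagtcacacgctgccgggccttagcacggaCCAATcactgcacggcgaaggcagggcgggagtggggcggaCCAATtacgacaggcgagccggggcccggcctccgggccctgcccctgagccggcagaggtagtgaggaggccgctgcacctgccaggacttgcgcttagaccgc
Cyp51, chr5:4104648-4104947, minus strand: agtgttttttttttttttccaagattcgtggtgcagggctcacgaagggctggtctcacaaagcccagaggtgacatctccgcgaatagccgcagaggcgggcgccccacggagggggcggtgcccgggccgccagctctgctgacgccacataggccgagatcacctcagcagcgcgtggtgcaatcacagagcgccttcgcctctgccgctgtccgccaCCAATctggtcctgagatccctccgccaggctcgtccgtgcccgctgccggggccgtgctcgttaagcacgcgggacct

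Promoters were matched for 24 of the 30 genes and for 14 of the 17 synthesis genes. Of the 14 synthesis genes, all 14 (100%) held a CCAAT box on either strand, against 41.1% of the 27025 genes with a window in the table and 5 of the 10 other members. In Hmgcs1 it occurred 4 times, the first starting at −237 from the gene's start, in Msmo1 3 times, and in Sc5d and Cyp51 once. The SRE letters were present in 1 synthesis gene, Hmgcs1, at −137, against 1.44% of all genes with a window. The E-box CAGATG, the letters that Neurog2 is known to bind among others, was present in 3 of the 14 synthesis genes (21.4%) and in 19.2% of all genes, and CATATG in 1 (7.14%) and in 4.48%. These are matches of letters only.

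With Neurog2, 8 of the 17 cholesterol synthesis genes were called lower and 2 genes of sterol export and uptake, Abcg1 and Mylip, were higher. The comparison was the mean of the 4 groups that received Neurog2 less the mean of the 4 that did not, over both cultures and with or without Hmgb2. Of the 30 genes, 2 were called higher, where 8.54% of all tested genes were, and 9 were called lower, where 6.74% were. The median difference of the 30 was −0.26, and that of all tested genes was 0.01. Of the 17 synthesis genes, 8 fell, none rose, and 15 lay below 0, with a median of −0.39. At a fold change above 2, 1 of the 30 was higher (Abcg1; 1.66% of tested genes) and 0 were lower (0.464%). Against the control libraries only, a comparison added after the data were seen, 2 were higher (5.66% of tested genes) and 8 lower (4.24%). Abcg1 was then 2.17 higher, Mylip 1.07 higher, Msmo1 −0.78 and Sc5d −0.69, and Nsdhl lost its call (−0.32, adjusted p = 0.0952).

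**Figure D1:**
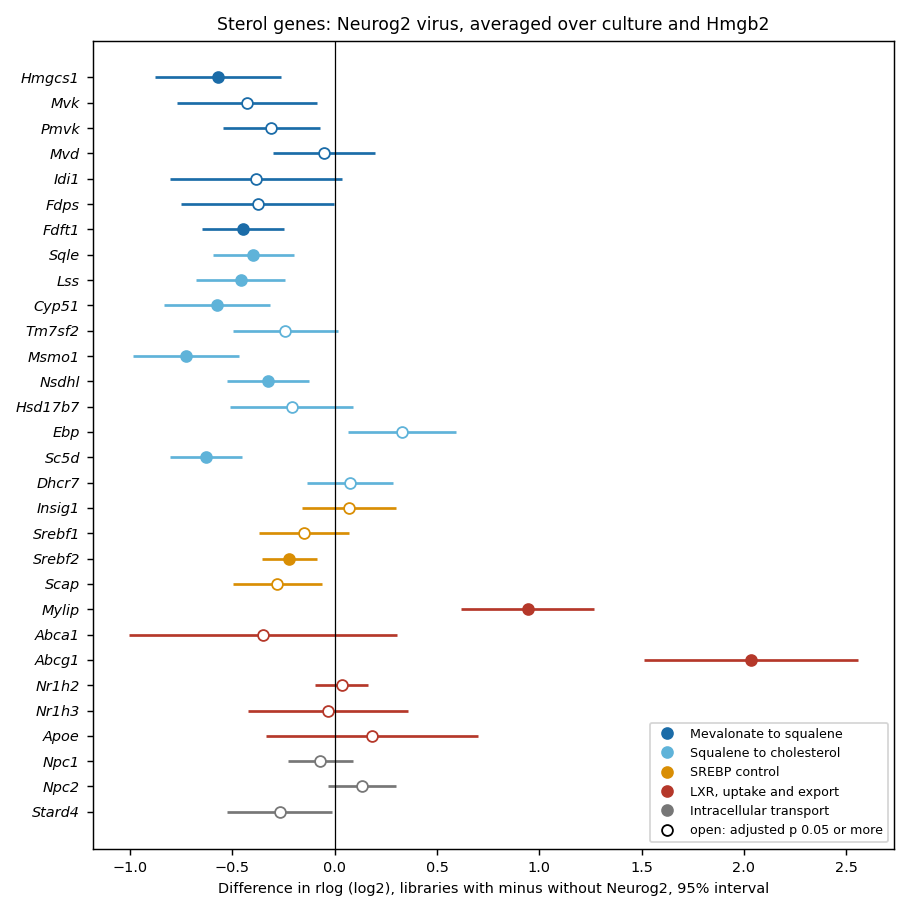
Difference in rlog (log2 units, horizontal axis) between libraries with and without Neurog2 for each of the 30 genes (vertical axis), coloured by role, with 95% confidence intervals from limma. Filled points are called at an adjusted p under 0.05: 9 lie left of 0, among them Msmo1 at −0.73 and Sc5d at −0.63, and Abcg1 at 2.03 and Mylip at 0.94 lie right of it.

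In the late part of the route, Msmo1, a methylsterol monooxygenase that acts in the removal of methyl groups from the sterol ring, was the most reduced. In the EGF + bFGF culture, Msmo1 was at 11.06, 10.29, 10.91, 11.08 and 10.68 with the control virus, 10.58, 11.11, 10.86 and 10.39 with Hmgb2, 10.41, 9.95 and 9.75 with Neurog2, and 10.08, 9.83 and 9.63 with Neurog2 + Hmgb2. With bFGF alone it was at 10.84, 10.86 and 10.12 with the control virus, 10.60, 11.01, 9.80 and 10.45 with Hmgb2, 9.97, 9.67, 9.74 and 10.20 with Neurog2, and 10.17, 9.98 and 9.62 with Neurog2 + Hmgb2. The Neurog2 libraries lay at the low end in both cultures, but control replicate 2 and Hmgb2 replicate 4 in the EGF + bFGF culture, and the control and Hmgb2 libraries numbered 3 in the bFGF culture, reached into their range. The difference was −0.73 ± 0.13, or 60.4% of the level without Neurog2 (adjusted p = 0.000289).

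Sc5d, the desaturase that acts near the end of the route, had the smallest adjusted p of the synthesis genes. In the EGF + bFGF culture, Sc5d was at 9.91, 9.27, 9.81, 10.04 and 9.72 with the control virus, 9.58, 9.78, 9.85 and 9.49 with Hmgb2, 9.15, 9.16 and 9.21 with Neurog2, and 9.16, 8.68 and 8.75 with Neurog2 + Hmgb2. With bFGF alone it was at 9.91, 9.74 and 9.35 with the control virus, 9.54, 9.79, 9.19 and 9.52 with Hmgb2, 8.86, 9.06, 9.09 and 9.33 with Neurog2, and 8.93, 9.17 and 8.79 with Neurog2 + Hmgb2. All 6 EGF + bFGF libraries with Neurog2 lay below all 9 without it, whereas 1 of 7 bFGF libraries with Neurog2 (9.33) lay above the lowest without it (9.19). The difference was −0.63 ± 0.09, or 64.7% of the level without Neurog2 (adjusted p = 1.56e-05).

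Cyp51, the demethylase that acts on lanosterol, fell by 0.58 ± 0.12 (adjusted p = 0.00259). Cyp51 ranged from 10.20 to 10.79 (median 10.47) in the 9 EGF + bFGF libraries without Neurog2 and from 9.63 to 9.90 (median 9.80) in the 6 with it. Among the bFGF libraries it ranged from 9.51 to 10.81 (median 10.67) in 7 without Neurog2 and from 9.37 to 10.22 (median 10.17) in 7 with it. The groups did not overlap in the EGF + bFGF culture and overlapped in the bFGF culture, where the libraries numbered 3 were the lowest of the control, Hmgb2 and Neurog2 + Hmgb2 groups and of the Neurog2 group. The other late enzymes that fell were Lss, Sqle and Nsdhl. Lss, lanosterol synthase, differed by −0.46 ± 0.11 (adjusted p = 0.00423), and Sqle, squalene epoxidase, by −0.40 ± 0.10 (adjusted p = 0.00652). Nsdhl, a sterol dehydrogenase of the demethylation in which Msmo1 acts, differed by −0.33 ± 0.10 (adjusted p = 0.0239). Nsdhl lost the call without bFGF control replicate 2 and without bFGF Neurog2 + Hmgb2 replicate 3, with an adjusted p of 0.0506 at most.

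**Figure D2:**
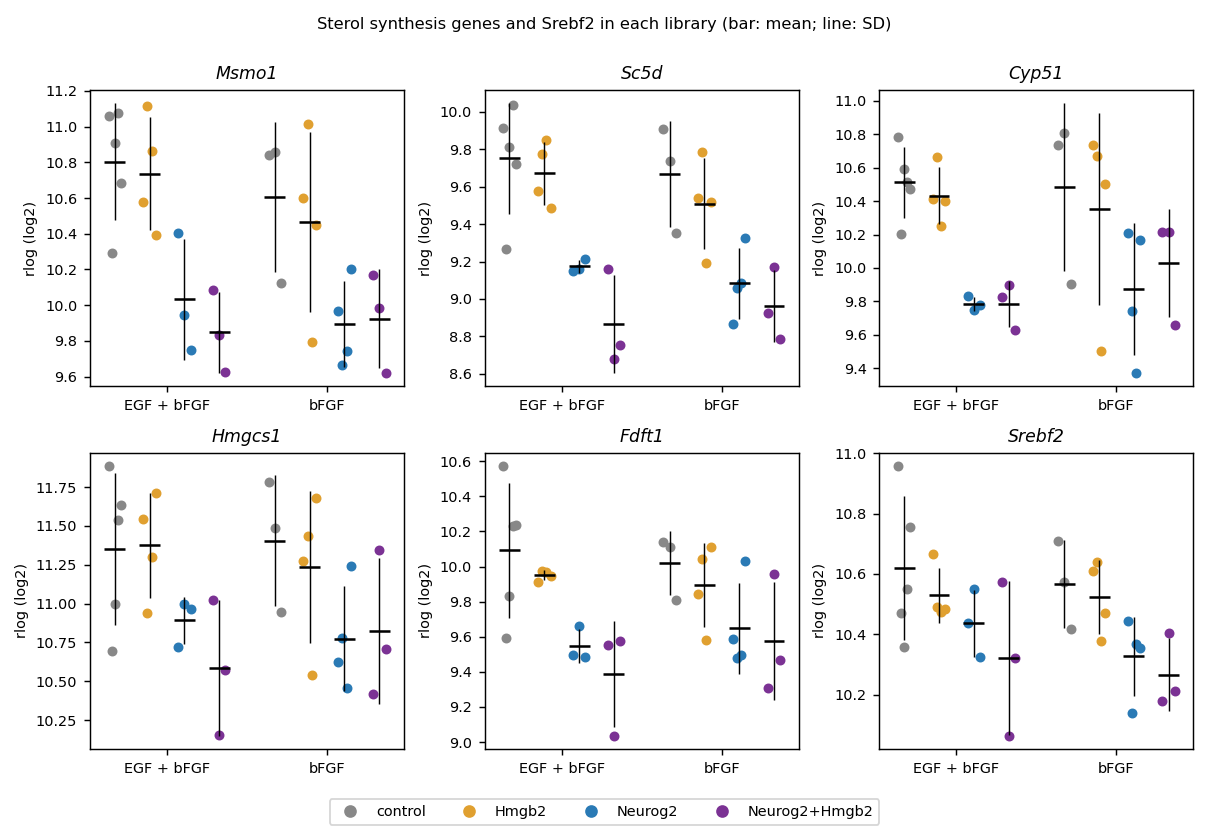
rlog value (log2 units) of Msmo1, Sc5d, Cyp51, Hmgcs1, Fdft1 and Srebf2 in each library (points), by culture and virus, with group means (bars) and SD (lines). The blue and purple points, the libraries with Neurog2, lie lower on average in each panel with overlap in most, and in the EGF + bFGF culture the highest of Sc5d and Cyp51 with Neurog2 lies under the lowest without it.

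In the early part of the route, Hmgcs1, which makes the precursor of mevalonate, and Fdft1, squalene synthase, were the genes that fell. Hmgcs1 ranged from 10.69 to 11.88 (median 11.54) in the 9 EGF + bFGF libraries without Neurog2 and from 10.15 to 11.02 (median 10.84) in the 6 with it. Its bFGF libraries ranged from 10.54 to 11.78 (median 11.44) in 7 libraries without Neurog2 and from 10.42 to 11.34 (median 10.71) in 7 with it. The ranges overlapped in both cultures. The difference of Hmgcs1 was −0.57 ± 0.15 (adjusted p = 0.0108), and that of Fdft1 was −0.45 ± 0.10 (adjusted p = 0.00263). About 18.3% of the exon bases of Fdft1 are shared with Ctsb on the other strand (GENCODE M21), and the library kit does not keep the strand, so reads there could come from either gene; Hmgcs1 likewise shares 12.1% with the antisense gene Gm48342.

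Of the 7 mevalonate genes, all 7 lay below 0 and 2 were called. The 5 that did not pass were Mvk (mevalonate kinase; −0.43 ± 0.17, adjusted p = 0.0814), Pmvk (−0.31, 0.0703), Idi1 (−0.39, 0.216), Fdps (−0.38, 0.169) and Mvd (−0.05, 0.814). In the EGF + bFGF culture, all 6 Neurog2 libraries lay below all 9 others for Mvk, Fdps, Lss, Cyp51 and Sc5d, 5 of the 30 genes, where 0.56% of tested genes did so, and no member lay wholly above (1.2% of tested genes). With bFGF alone no member lay wholly below (0.42% of tested genes), and over both cultures together none lay wholly above (0.286%) or below (0.0127%). Fdps shares 26.7% of its exon bases with Gm43738 on the same strand. Ebp, the sterol isomerase, and Dhcr7, the reductase of the last step, did not follow the others. Their differences were 0.33 ± 0.13 (adjusted p = 0.0831) and 0.08 ± 0.10 (adjusted p = 0.668). Tm7sf2 and Hsd17b7, also of the late part of the route, lay below 0 and were not called. Medians of Tm7sf2 without and with Neurog2 were 7.08 and 6.86 with EGF + bFGF, and 7.08 and 6.82 with bFGF. Those of Hsd17b7 were 8.60 and 8.45 with EGF + bFGF, and 8.72 and 8.28 with bFGF.

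Srebf2, the gene of the regulator that switches the route on, was lower with Neurog2 by a small amount. Srebf2 ranged from 10.36 to 10.96 (median 10.49) in the 9 EGF + bFGF libraries without Neurog2 and from 10.06 to 10.58 (median 10.38) in the 6 with it, and from 10.38 to 10.71 and 10.14 to 10.45 in the 7 and 7 bFGF libraries. The ranges overlapped in both cultures. The difference was −0.22 ± 0.07, or 85.7% (adjusted p = 0.0221), and the call was lost with quantile normalization (−0.16, adjusted p = 0.126). Scap (−0.28 ± 0.11, adjusted p = 0.0744), Srebf1 (−0.15, 0.380) and Insig1 (0.07, 0.717) did not pass.

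Abcg1, a transporter that exports cholesterol to lipoprotein particles, showed the largest difference of the 30. Its gene lies at chr17:31057675-31117988 on the plus strand (GRCm38, GENCODE M21). With EGF + bFGF, Abcg1 was at 3.68, 6.65, 4.69, 3.88 and 3.89 with the control virus, 4.10, 5.05, 4.34 and 4.41 with Hmgb2, 5.33, 5.97 and 6.32 with Neurog2, and 6.11, 7.60 and 6.74 with Neurog2 + Hmgb2. With bFGF alone it was at 3.93, 4.69 and 4.88 with the control virus, 4.68, 5.65, 5.22 and 4.97 with Hmgb2, 7.20, 7.16, 6.21 and 7.66 with Neurog2, and 6.93, 7.13 and 7.10 with Neurog2 + Hmgb2. All 7 bFGF libraries with Neurog2 lay above all 7 without it (0.91% of tested genes did so), whereas in the EGF + bFGF culture control replicate 2, at 6.65, lay above 4 of the 6 libraries with Neurog2. The difference was 2.03 ± 0.25, or 4.10-fold (adjusted p = 4.70e-06).

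Mylip, the ligase for lipoprotein receptors (chr13:45389742-45412022, plus strand), was higher by 0.94 ± 0.16, or 1.92-fold (adjusted p = 0.000201). With EGF + bFGF, Mylip was at 4.42, 5.85, 5.23, 4.56 and 4.25 with the control virus, 4.82, 5.14, 5.07 and 4.75 with Hmgb2, 5.09, 5.24 and 5.87 with Neurog2, and 5.75, 5.95 and 5.69 with Neurog2 + Hmgb2. With bFGF alone it was at 4.38, 4.95 and 5.00 with the control virus, 5.24, 5.22, 5.04 and 5.29 with Hmgb2, 6.50, 7.26, 5.77 and 6.34 with Neurog2, and 6.00, 5.58 and 6.07 with Neurog2 + Hmgb2. As for Abcg1, the bFGF groups did not overlap and the EGF + bFGF groups did, control replicate 2 again being the highest of its group.

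The other members of the export and LXR group did not follow Abcg1 and Mylip. Abca1, the other main exporter, ranged from 9.39 to 12.65 over all libraries, and its difference was −0.35 ± 0.32 (adjusted p = 0.502). Apoe, the main lipid carrier of astrocytes, ranged from 11.66 to 14.49, with a difference of 0.18 ± 0.25 (adjusted p = 0.681). The 95% intervals were −1.01 to 0.30 for Abca1 and −0.34 to 0.70 for Apoe. The LXR receptor genes Nr1h2 (0.03 ± 0.06) and Nr1h3 (−0.03 ± 0.19) were not called either, nor were the lysosomal cholesterol carriers Npc1 (−0.07) and Npc2 (0.13) or the transfer protein Stard4 (−0.27, adjusted p = 0.146).

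**Figure D3:**
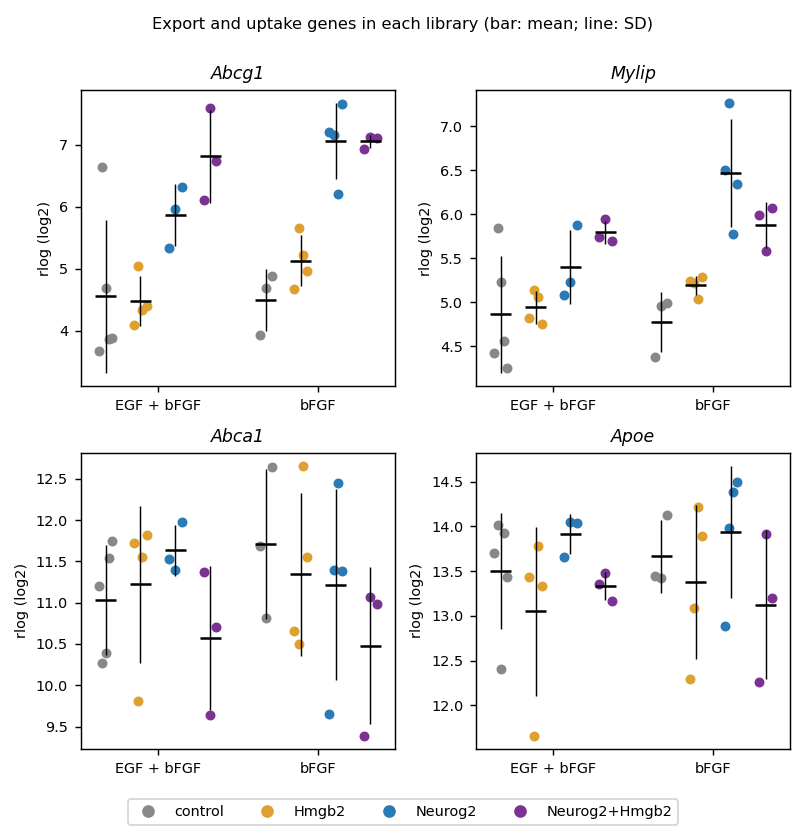
rlog value (log2 units) of Abcg1, Mylip, Abca1 and Apoe in each library (points), by culture and virus, with group means (bars) and SD (lines). The bFGF libraries with Neurog2 lie above the others for Abcg1 (6.21 to 7.66 against 3.93 to 5.65) and for Mylip (5.58 to 7.26 against 4.38 to 5.29), and the panels of Abca1 and Apoe show wide, overlapping groups.

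Microglia carry Abcg1 as well, and their markers moved with Abcg1 in these bulk libraries. These markers lay higher with Neurog2 in the averaged comparison, but had a median difference of 0.08 for Neurog2 against control with EGF + bFGF. More cells of a type and more RNA per cell cannot be told apart in such libraries. Over the 29 libraries, after group means were removed, the deviations of Abcg1 and of the mean of 12 microglia markers had r = 0.834 and those of Mylip had r = 0.575; the points share libraries and normalization, so this is a description. Control replicate 2 of the EGF + bFGF culture had a marker mean of 8.78. Among libraries with a marker mean below 5, the 3 with Neurog2 had Abcg1 at 5.33 to 6.21 and the 6 without it had 3.88 to 5.05, while Mylip was at 5.09 to 5.77 and 4.25 to 5.14, which overlap. Of these, all 6 without Neurog2 were EGF + bFGF libraries, as were 2 of the 3 with it, and the Abcg1 value of 6.21 came from the bFGF culture. The limit of 5 was not set in advance, and no test was run on these few libraries. In a fit with the marker mean as a covariate, added after the data were seen, Abcg1 was 1.46 higher (adjusted p = 3.58e-06) and Mylip 0.70 higher (adjusted p = 0.00397). Hmgcs1 (−0.51, adjusted p = 0.0611), Nsdhl (−0.25, 0.154) and Srebf2 (−0.18, 0.126) lost their calls in that fit. It called 2 members higher, where 6.24% of tested genes were, and 6 lower, where 3.98% were.

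**Figure D4:**
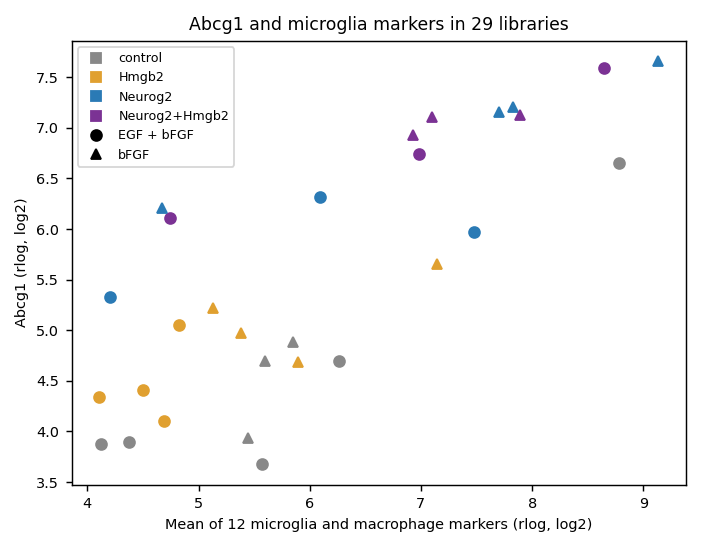
Abcg1 (rlog, log2 units, vertical axis) against the mean of 12 microglia and macrophage markers (rlog, log2 units, horizontal axis) in the 29 libraries. Abcg1 lies higher at higher marker means, and at marker means below 5 the 3 libraries with Neurog2 (5.33 to 6.21; 1 from the bFGF culture) lie above the 6 without it (3.88 to 5.05; all from the EGF + bFGF culture). The limit of 5 was not set in advance.

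The 17 synthesis genes also moved together from library to library. After group means were removed, their 136 pairs had a median r of 0.615 over the 29 libraries, 130 of them above 0, and Cyp51 (0.922) and Fdps (0.912) followed the mean of the others most closely while Ebp followed it least (0.170). These points share library and normalization, and the values are a description. Srebf2 had a median r of 0.476 with the 17 genes and Insig1 0.454, whereas the median was −0.09 for Abcg1 and −0.16 for Mylip. The mean of the 17 genes was 8.19 to 9.40 in 16 libraries without Neurog2 and 8.23 to 8.91 in 13 with it. In the bFGF culture the library numbered 3 was the lowest of all 4 groups, at 8.51 with control, 8.19 with Hmgb2, 8.23 with Neurog2 and 8.43 with Neurog2 + Hmgb2. Without these 4 libraries, 2 members were higher (8.23% of tested genes) and 12 lower (6.31%) with Neurog2. Without the 7 libraries low in astrocyte markers, 3 were higher (11.4%) and 11 lower (10.2%).

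The averaged difference was also taken within each culture, from the model of all 29 libraries. In the EGF + bFGF culture Abcg1 rose (1.83, adjusted p = 0.00228), where 3.34% of tested genes did, and 5 genes fell, Fdft1, Lss, Cyp51, Msmo1 and Sc5d, where 1.65% did. In the bFGF culture Abcg1 and Mylip rose (2.65% of tested genes; 1.65% fell), and Msmo1 (adjusted p = 0.0472) and Sc5d (adjusted p = 0.00773) fell. The test of the difference between cultures called none of the 30 genes by limma, and 0 at an unadjusted p under 0.05. All 17 synthesis genes had a value above 0 there (0.04 to 0.59), and none passed. Such a value means that the difference with Neurog2 was less negative, or more positive, in the bFGF culture. Cyp51, for example, differed by −0.47 in the bFGF culture and by −0.69 in the EGF + bFGF culture.

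Single groups against their own control gave fewer calls, and the comparisons with Neurog2 and with Neurog2 + Hmgb2 share the control libraries. Neurog2 alone in the EGF + bFGF culture called 0 of 30 genes by limma (1.35% of tested genes were higher and 0.229% lower), with 8 at an unadjusted p under 0.05 and Sc5d nearest (−0.58 ± 0.17, adjusted p = 0.0846). With bFGF alone, Neurog2 called Mylip (1.69 ± 0.32, adjusted p = 0.0129) and Abcg1 (2.56 ± 0.51, adjusted p = 0.0189) higher, where 0.337% of tested genes were higher and 0.0127% lower. Neurog2 + Hmgb2 in the EGF + bFGF culture called Abcg1 higher (2.26 ± 0.49, adjusted p = 0.0130; 1.46%) and Sc5d (−0.88 ± 0.17, adjusted p = 0.00320) and Msmo1 (−0.96 ± 0.24, adjusted p = 0.0381) lower (0.522%). With bFGF alone, Neurog2 + Hmgb2 called Abcg1 higher (2.55 ± 0.55, adjusted p = 0.0162), where 1.03% of tested genes were higher and 0.452% lower.

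Several of these single-group calls were lost when any 1 of several libraries was left out, while the differences kept their direction. The call of Mylip in the bFGF culture was lost without control replicate 1 (adjusted p = 0.125) or Neurog2 replicate 2 (0.0604), with a difference of at least 1.43. That of Abcg1 with Neurog2 was lost without control replicate 1 (0.177) or 2, or without Neurog2 replicate 1, 2 or 4, with differences of 2.27 to 2.65. That of Abcg1 with Neurog2 + Hmgb2 in the bFGF culture was lost without control replicate 1 (0.106) or 2 or Neurog2 + Hmgb2 replicate 2 or 3 (differences of 2.27 to 2.65), and in the EGF + bFGF culture without Neurog2 + Hmgb2 replicate 2 (0.0792) or 3 (differences of 1.87 and 2.29). Msmo1 was lost without control replicate 1, 3, 4 or 5 or Neurog2 + Hmgb2 replicate 2 or 3 (adjusted p up to 0.283, differences of −0.99 to −0.85), whereas Sc5d passed under every library left out (0.0453 at most).

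**Figure D5:**
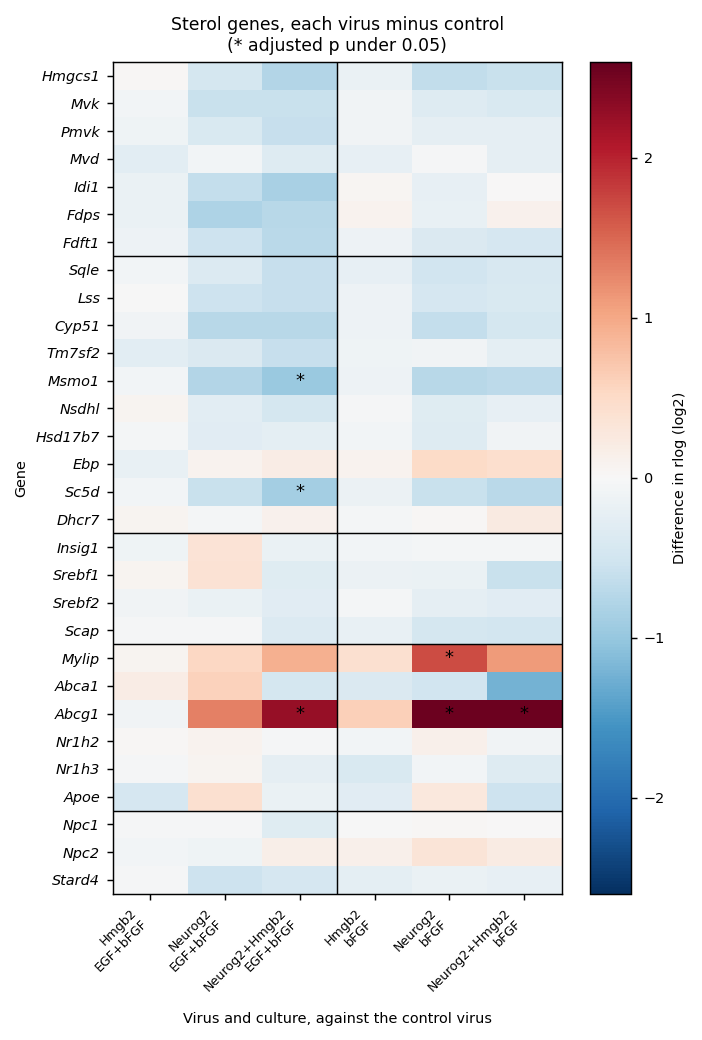
Difference in rlog (log2 units, colour) of the 30 genes (rows, by role) for each virus against the control of the same culture (columns). Stars mark an adjusted p under 0.05. They stand at Abcg1 in 3 columns, Mylip in 1, and Msmo1 and Sc5d in 1, and the 2 Hmgb2 columns hold none.

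Hmgb2 alone or on top of Neurog2 called none of the 30 genes by limma, in either culture. Over all tested genes, 0.0127% rose with Hmgb2 alone under EGF + bFGF and 0.00636% under bFGF, and 0.00636% rose in each culture when Hmgb2 was added to Neurog2, with 0% lower. At an unadjusted p under 0.05 stood 0 and 0 of the 30 with Hmgb2 alone and 2 and 0 when added to Neurog2. Averaged over cultures and Neurog2, the differences with Hmgb2 ran from −0.53 to 0.37, 2 were at an unadjusted p under 0.05, and the smallest adjusted p was 0.779. They were Srebf1 (−0.29 ± 0.11, 95% interval −0.51 to −0.07) and Apoe (−0.53 ± 0.25). In that average, 0.0127% of tested genes were called higher and 0% lower. For Sc5d the Hmgb2 interval was −0.34 to 0.01. Adding Hmgb2 to Neurog2 changed Srebf1 by −0.69 ± 0.23 in the EGF + bFGF culture (adjusted p = 0.802), a difference that did not pass.

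The cultures also differed in none of the 30 genes by limma when averaged over viruses, where 0.757% of tested genes were higher and 0.426% lower in the bFGF culture. The nearest were Npc2 (0.28 ± 0.08, adjusted p = 0.0779), Insig1 (−0.35 ± 0.11, adjusted p = 0.120) and Srebf1 (−0.30 ± 0.11, adjusted p = 0.162), and 4 genes were at an unadjusted p under 0.05. In control cells alone, 0 of the 30 were called and 0 were at an unadjusted p under 0.05.

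Neighbouring lipid genes were taken from 4 lists set beside the 30 genes, and counted in the averaged Neurog2 comparison, in which 8.54% of all tested genes were higher and 6.74% lower. Of 13 lipoprotein receptors and apolipoproteins, 3 rose and 0 fell. Lrp8, an Apoe receptor of neurons, rose by 1.39 ± 0.19 (adjusted p = 1.11e-05); it is also in a gene set that the study chose on these samples, so it is not independent evidence. Vldlr (0.97 ± 0.28, adjusted p = 0.0206) and Lrpap1 (0.23 ± 0.08, adjusted p = 0.0467) rose too. Lrp8 ranged from 8.42 to 9.42 in libraries without Neurog2 and from 8.80 to 11.18 with it, and only bFGF Neurog2 replicate 3 (8.80) and EGF + bFGF Neurog2 + Hmgb2 replicate 2 (9.39) lay inside the range of the others.

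Of 17 further sterol regulators and enzymes, 1 rose and 3 fell. Cyp27a1, which makes an oxysterol, rose by 0.27 ± 0.08 (adjusted p = 0.0167), at low levels (group means of 2.31 to 2.99). In the bFGF culture its mean with Neurog2 + Hmgb2 (2.58) lay below that with control (2.69). The other groups with Neurog2 lay above their control. Among those that fell were Soat1, which esterifies cholesterol for storage (−0.61 ± 0.16, adjusted p = 0.0123), and Erlin2 (−0.42 ± 0.11, adjusted p = 0.0140). Of 12 fatty acid genes, 0 rose and 2 fell, the desaturase Scd1 (−0.68 ± 0.18, adjusted p = 0.00933) and Mid1ip1 (−0.53 ± 0.16, adjusted p = 0.0221). Of 14 sterol transfer proteins, 3 rose, Gramd1b (0.76 ± 0.16, adjusted p = 0.00235), Gramd1a (0.41 ± 0.10, adjusted p = 0.00697) and Osbpl2 (0.42 ± 0.11, adjusted p = 0.0106), and 2 fell, among them Osbpl9 by 0.21. Between cultures, Apod was higher with bFGF alone (1.61 ± 0.33, adjusted p = 0.0222) and Osbpl6 lower (−0.66 ± 0.16, adjusted p = 0.0396). In that comparison, the fibroblast marker Dcn was also called higher (1.84, adjusted p = 0.0188). Of 9 oligodendrocyte lineage markers, 7 lay above 0 and 2 below, and Pdgfra was called higher (1.42, adjusted p = 0.0417). The part of such cells in the culture differences was not tested.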

How the data were processed

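RNA was measured in sorted cells of 29 samples in 8 groups of 3 to 5. Per the labels and methods, cDNA came from the unstranded SMART-Seq v4 kit, and the authors mapped the paired-end reads to mm10 with STAR, counted them per GENCODE gene with HTSeq 0.9.1 and transformed the counts with DESeq2 (1.36.0 in the submitters' processing notes). The deposited table holds rlog values on a log2 scale, −2.35 to 17.2 over 25239 genes. All 29 columns were matched to a sample by title. Depth and the precision it gives are unknown without counts.

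limma 3.58.1 in R 4.3.3 was used for a model with 1 mean for each group and a variance trend, with 21 residual degrees of freedom and Benjamini-Hochberg adjustment over 15719 genes with a mean rlog of at least 1 (9520 left out). The averaged Neurog2 comparison weights 4 groups with and 4 without equally. All 30 members were tested. Library values or ranges are given for the called Msmo1, Sc5d, Cyp51, Hmgcs1, Srebf2, Abcg1 and Mylip. For the called Lss, Sqle, Nsdhl and Fdft1 the text gives the difference. At most 4 called genes per other lipid list and comparison are named. A called gene of these lists is not reported here. Members and lists were chosen with earlier results of these data known. Positions come from GENCODE M21 and promoters from RefSeq, both GRCm38. No 2 libraries were duplicates (smallest median absolute difference 0.124). Figures were drawn with Python 3.11.15 and matplotlib 3.10.9. Alternatives were no filter, a filter at 4, a fold above 2, median centring, quantile normalization, array weights, no or robust trend, only the groups compared, a replicate block, and leaving out each library. Added after seeing the data were a microglia covariate, fits without the 4 bFGF libraries numbered 3 or without the 7 low in astrocyte markers, the difference within each culture, and a comparison with control libraries only. The limit of 5 on the microglia marker mean was not set in advance either.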

Additional observations from a re-analysis of the deposited data

Results flagged for a closer look

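In 120 values of groups with 4 or 5 libraries, 4 held a library far from the others of its group, where chance flags about 1 in 20. Fdps in bFGF Hmgb2 replicate 3 was at 8.60 while the other 3 were at 10.02 to 10.17, and that library had the lowest mean of the 17 synthesis genes of all (8.19). Scap in the same library was at 10.46, against 10.27 to 10.29 in the others. Srebf2 in EGF + bFGF Hmgb2 replicate 1 was at 10.67, against 10.47 to 10.49. Abca1 in EGF + bFGF Hmgb2 replicate 2 was at 9.81, against 11.55 to 11.82, and the same library had Apoe at 11.66, the lowest of all libraries, and an astrocyte marker mean of 9.85.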

How the results depend on the processing

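No result changed direction under any alternative. Of 1852 values recomputed under another setting, 1739 kept their side of the threshold, or a count within 1.5 times of the main one. Another 48 lost a call, and 65 were counts that moved by over 1.5 times, or to or from 0. The averaged Neurog2 comparison (2 higher, 9 lower) gave 1 higher and 0 lower at a fold above 2, 18 lower with array weights, 1 higher and 5 lower within the EGF + bFGF culture and 2 lower within the bFGF culture, and 2 to 3 higher and 8 to 12 lower with a library left out. Replicate numbers were not taken to pair libraries, since not every same-numbered pair had a correlation of deviations over 0.1: 13 of 19 pairs did with EGF + bFGF and 12 of 19 with bFGF (−0.608 to 0.808 in all), among them all 6 EGF + bFGF pairs numbered 2 (0.131 to 0.779) and all 6 bFGF pairs numbered 3 (0.231 to 0.808). On average, 4 of 14 EGF + bFGF libraries and 7 of 14 bFGF libraries correlated best with their own number. With a replicate block within culture the averaged Neurog2 comparison gave 2 higher and 12 lower, and the block called 2 lower for Neurog2 in EGF + bFGF (0 without it), 4 lower for Neurog2 + Hmgb2 there (2 without it) and 1 lower in bFGF (0 without it), and a block on the number over both cultures moved none of the counts by over 1.5 times.

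Neurog2 in EGF + bFGF (0 and 0) gave 2 higher and 15 lower with array weights, 1 higher with the microglia covariate, 1 lower with only the groups compared, 1 lower without the 4 bFGF libraries numbered 3, and 1 higher and 2 lower without libraries low in astrocyte markers; 0 to 1 higher and 0 to 1 lower with a library left out (1 and 1 without control replicate 2). Neurog2 in bFGF (2 higher, 0 lower) gave 1 higher without a filter, 0 with only the groups compared, 4 lower with array weights, 1 lower without the libraries numbered 3, and 0 to 2 higher with a library left out. Neurog2 + Hmgb2 in EGF + bFGF (1 higher, 2 lower) gave 0 higher and 0 lower with only the groups compared, 2 higher and 13 lower with array weights, 2 higher without libraries low in astrocyte markers, 0 lower at a fold above 2, 1 lower without a filter, 1 lower with the covariate, 4 lower without the libraries numbered 3, and 0 to 2 higher and 1 to 4 lower with a library left out. Neurog2 + Hmgb2 in bFGF (1 higher, 0 lower) gave 2 higher and 12 lower with array weights, 0 higher without the libraries numbered 3, and 0 to 1 higher and 0 to 1 lower with a library left out. Neurog2 + Hmgb2 against Neurog2 in bFGF gave 1 lower with array weights. The cultures (0 and 0) gave 1 higher with quantile normalization, 3 higher and 3 lower with array weights, 2 higher and 3 lower without libraries low in astrocyte markers, and 0 to 1 higher with a library left out. The cause was not tested. Array weights moved the counts of lower genes most, from 9 to 18 in the averaged comparison. The median over all genes moved from 0.01 to −0.02 with median centring. Depth could not be weighed, since counts were not used.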
